A study of Mus musculus with 3 samples.

Results

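The windows of 8 developmental regulators were examined in Capture Hi-C (CHi-C) di-tags of mouse embryonic stem cells. A window is the stretch of the mm9 genome assigned to a gene by a rule that used positions only and no measured value. The windows were T on chromosome 17 (8620000 to 8649999), Eomes on chromosome 9 (118380000 to 118409999), Gata4 on chromosome 14 (63810000 to 63879999) and Gata6 on chromosome 18 (11040000 to 11089999). The others were Foxa2 and Pax6 on chromosome 2 (147860000 to 147879999 and 105500000 to 105539999), Sox17 on chromosome 1 (4470000 to 4499999) and Sox9 on chromosome 11 (112640000 to 112659999). A di-tag is a pair of reads from 1 ligation product, meant to record 2 DNA fragments that lay near each other when the cells were fixed. After removal of duplicates, 12690 of 26794867 di-tags had at least 1 end in a window. These were 5327 in Sample 3, 3795 in Sample 4 and 3568 in Sample 5, or 0.0568%, 0.0441% and 0.0404% of each library.

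The 3 libraries carry the cell type label embryonic stem cells and the strain label C57BL/6, and neither treatment nor genotype is given. For Sample 3 the labels disagree, since its source is given as foetal liver. Nothing states whether the libraries came from separate cultures, so the spread among them may be technical. The duplicate-free lists held 9376907, 8596799 and 8821161 di-tags, and cis di-tags over more than 2 Mb were more frequent in Sample 3, at 26.5% of di-tags with a captured region against 8.85% and 8.00% in Samples 4 and 5. Transcripts were not measured, so whether these genes were silent in the cells could not be checked.

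T (Brachyury) and Eomes are T-box transcription factors of the primitive streak and mesoderm, Gata4 and Gata6 are zinc-finger factors of endoderm and heart, and Foxa2 (a forkhead factor) and Sox17 (an HMG-box factor) act in definitive endoderm. Pax6 is a paired-box factor of eye and brain, and Sox9 is an HMG-box factor of cartilage and testis. In pluripotent cells such genes are known to be held silent by Polycomb group proteins, which mark CpG-rich promoters with trimethylated lysine on histone H3. Polycomb-bound genes are also known to touch one another over long distances, which is why contacts among the windows were counted.

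CHi-C enriches Hi-C ligation products for chosen fragments, and the labels do not name those fragments. The methods refer to a protocol that the study describes elsewhere as enriching promoters, without stating the targets of these 3 libraries. Promoters are shown because their CpG content is the feature that Polycomb silencing is known for. RefSeq promoter sequences were at hand for 4 of the 8 genes, T, Eomes, Foxa2 and Pax6. The 250 bases before the first listed start are shown for each, with every CG dinucleotide, the substrate of DNA methylation, in capitals. The build is GRCm38, whose positions cannot be set against the mm9 windows. The T promoter is chr17:8434173-8434422 (plus strand), Eomes chr9:118477939-118478188 (plus), Pax6 chr2:105668646-105668895 (plus, first of 2 listed starts) and Foxa2 chr2:148046970-148047219 (minus, first of 3).
T: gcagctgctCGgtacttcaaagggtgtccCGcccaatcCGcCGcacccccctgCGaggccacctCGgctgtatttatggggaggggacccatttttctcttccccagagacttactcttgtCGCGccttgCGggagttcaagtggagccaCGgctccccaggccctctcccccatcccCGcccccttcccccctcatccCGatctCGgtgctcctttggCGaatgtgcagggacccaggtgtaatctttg
Eomes: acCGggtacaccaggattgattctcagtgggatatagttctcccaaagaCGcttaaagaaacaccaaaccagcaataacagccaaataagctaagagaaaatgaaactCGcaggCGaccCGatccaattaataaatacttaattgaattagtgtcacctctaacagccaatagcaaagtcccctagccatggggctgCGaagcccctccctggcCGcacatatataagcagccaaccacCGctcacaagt
Foxa2: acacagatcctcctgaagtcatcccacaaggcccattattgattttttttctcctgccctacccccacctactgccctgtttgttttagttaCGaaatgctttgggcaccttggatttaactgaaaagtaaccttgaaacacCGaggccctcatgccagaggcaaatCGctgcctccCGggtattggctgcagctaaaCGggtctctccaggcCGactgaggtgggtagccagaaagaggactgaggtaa
Pax6: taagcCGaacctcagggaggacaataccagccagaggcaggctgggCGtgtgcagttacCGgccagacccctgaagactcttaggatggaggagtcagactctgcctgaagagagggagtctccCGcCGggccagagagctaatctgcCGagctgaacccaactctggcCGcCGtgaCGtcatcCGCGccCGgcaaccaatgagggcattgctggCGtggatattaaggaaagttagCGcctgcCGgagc

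The letters CG occurred 14 times in the T stretch, 8 times in Eomes, 6 times in Foxa2 and 15 times in Pax6, against a median of 6 over 32851 listed promoters of the same length, of which 92.1% held at least 1 CG. The other Foxa2 starts held 20 and 13. The recognition sequence of HindIII, AAGCTT, which reads the same on both strands, was in none of these stretches and in 6.22% of all promoters. HindIII is the enzyme that cut the fixed chromatin, so the ends of a di-tag lie near its cut sites.

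Ends gathered in a few kilobases of each window, and most of these were shared by the 3 libraries. In Foxa2, the kilobase from 147862000 held 82 of 115, 105 of 145 and 87 of 125 ends in Samples 3, 4 and 5, and the region from 147870000 to 147879999 held none, so the Foxa2 values below come from 1 region of 10 kb. In Sox9, the kilobases from 112653000 and 112642000 held 114 and 62 of 187 ends in Sample 3, 154 and 103 of 264 in Sample 4 and 155 and 76 of 240 in Sample 5. In T, 44.3%, 38.7% and 34.8% of ends lay in the kilobase from 8625000. In Gata4, 32.3%, 28.3% and 24.5% lay in the kilobase from 63815000, and 47 of its 70 kilobases held no end in any library. Pax6 ends were divided more evenly, with 22.6%, 17.5% and 15.5% in the kilobase from 105510000 and similar shares in those from 105509000 and 105507000.

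**Figure D1:**
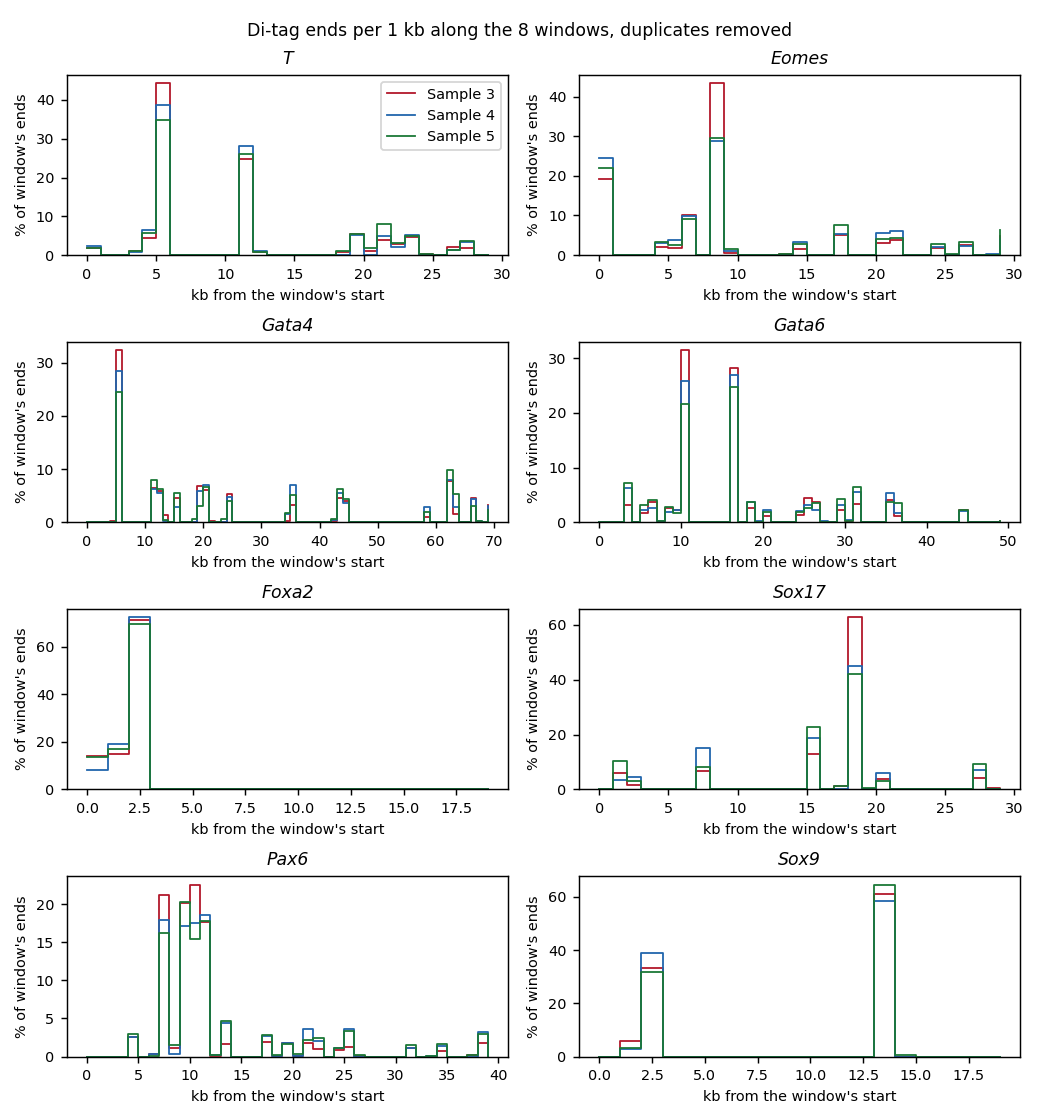
Share of each window's di-tag ends (percent, y axis) per 1 kb step from the window's start (x axis), with 1 line per library and duplicates removed. The same steps hold most ends in Samples 3, 4 and 5, and the Foxa2 window has none beyond its first 3 steps.

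A region of 10 kb was taken as captured when it was among the 10% with most trans ends in all 3 libraries, since no list of baits was at hand. Of the 29 regions in the windows 6 met this, namely 2 of T, 2 of Pax6, 1 of Eomes and 1 of Gata6. The leading Eomes region, from 118380000, held 885, 478 and 433 ends. The leading Sox17 region, from 4480000, fell just short, with more trans ends than 92.5%, 89.8% and 84.9% of regions, and so did the leading Gata4 region. The leading regions of Sox9 and Foxa2 exceeded 77.9%, 87.5% and 90.0% (Sox9) and 75.2%, 82.4% and 77.4% (Foxa2) of regions.

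Partners on other chromosomes were the largest class for every window and library except Foxa2 in Sample 3, where 48 of 113 di-tags were trans and 51 cis beyond 2 Mb. Trans di-tags also made up 50.8%, 66.7% and 71.0% of all di-tags with a captured region in Samples 3, 4 and 5. The study reads a high ratio of trans to cis as a mark of a poor library. Spurious ligation, it states, tends to join different chromosomes. How many of the windows' trans di-tags were of that kind was not tested. Di-tags that stayed within the window or within 2 Mb of it made up 24.7% ± 2.97 (SD, n = 3) of the windows' di-tags, against 22.7% ± 1.69 (SD, n = 3) of all di-tags with a captured region. Sox9 had the highest mean share, at 27.8%, 31.8% and 29.2% in Samples 3, 4 and 5, and Sox17 the lowest mean, at 16.7%, 20.8% and 18.4%. Sox9 was the highest in no single library, where Gata4 (30.8% in Sample 3), Foxa2 (36.8% in Sample 4) and Pax6 (32.9% in Sample 5) lay above it. With duplicates kept, Gata4 had the highest mean (31.8%, against 31.6% for Sox9) and T the lowest (20.7%). Exact binomial 95% intervals, which cover counting error only, were 21.5% to 34.8% for Sox9 and 12.1% to 22.2% for Sox17 in Sample 3. Foxa2 spread most among libraries, with 12.4%, 36.8% and 30.1%, of 113, 136 and 123 di-tags.

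Pairs with both ends in the window were counted as well. The windows span 20 to 70 kb, and HiCUP discards pairs that map to the same restriction fragment. These shares are therefore not a like-for-like comparison of windows. Pax6 held 82 of 1664 such di-tags in Sample 3, 105 of 797 in Sample 4 and 148 of 802 in Sample 5, that is 4.93%, 13.2% and 18.5%. The Sox9 window held 0 of 187, 264 and 240, and what part of this was set by the filter was not tested. In every window the share of cis di-tags beyond 2 Mb was highest in Sample 3, from 22.6% in Gata6 to 45.1% in Foxa2, and it lay between 6.34% and 15.4% in Samples 4 and 5. All captured di-tags moved the same way, as given above, and the part of this library-wide difference in the windows' values was not tested.

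**Figure D2:**
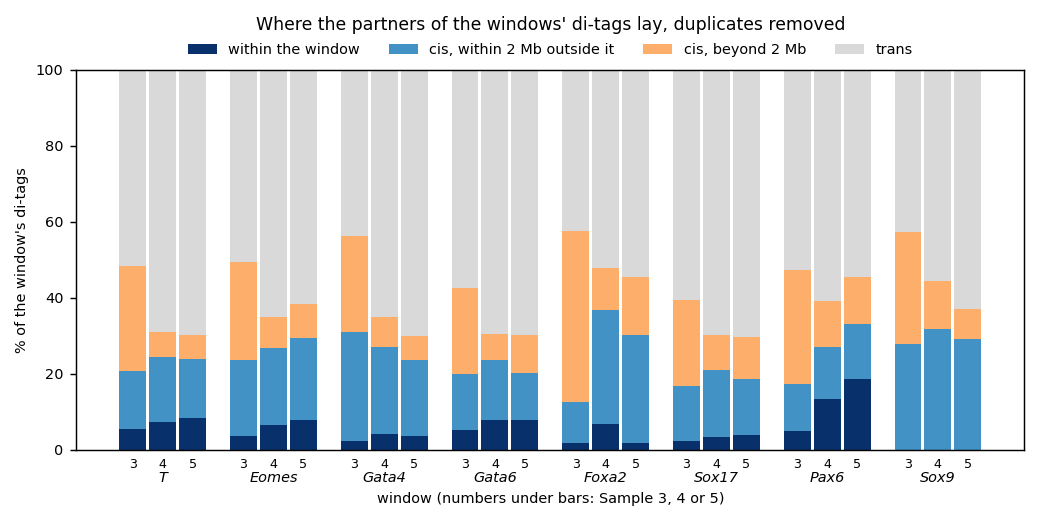
Share of each window's di-tags (percent, y axis) by where the partner end lay, with 1 bar per library (Samples 3, 4 and 5) and window. The orange part, cis beyond 2 Mb, is largest in Sample 3 for all 8 windows. Sox9 has no di-tag inside its window, a class that the filter of HiCUP limits.

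Whether a window had more cis contacts than its coverage gives was asked next. For each pair of 10 kb regions 20 kb to 2 Mb apart, an expected number was set from both regions' shares of all ends and from the decline of contacts with distance, separately for pairs with 2, 1 or no captured regions. Sox9 had the highest ratio of found to expected contacts in Samples 3 and 4. It had 47 di-tags against 23.4 expected in Sample 3, 81 against 34.6 in Sample 4 and 63 against 26.8 in Sample 5. The ratios were 2.01, 2.34 and 2.35 (2.24 ± 0.20, SD, n = 3). Both Sox9 regions exceeded between 98.6% and 99.7% of all regions with at least 5 expected di-tags in each library. These 2 regions adjoin and do not count as separate evidence. In Sample 3, 58 of 62 ends in the kilobase from 112642000 were minus-strand reads, and 107 of 114 in that from 112653000 were plus-strand reads. No end lay between these kilobases in any library. The 2 ends of 1 HindIII fragment would give this layout, but the cut sites were not checked in the mm9 sequence. The 95th percentile of those regions was 1.65, 1.72 and 1.71, and their median 0.996, 0.976 and 0.965.

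Gata6 and Sox17 also had more contacts than expected in all 3 libraries, with ratios of 1.43, 1.62 and 1.47 for Gata6 and 1.71, 1.52 and 1.37 for Sox17. The captured Gata6 region, from 11050000, exceeded 92.0%, 94.9% and 94.9% of regions, while its neighbour from 11060000 exceeded 30.5%, 21.5% and 4.44%. The other Gata6 regions compared were high as well without being captured, that from 11040000 above 80.2%, 88.2% and 91.0% of regions and that from 11070000 above 94.5%, 96.7% and 66.9%. T was at 1.20, 1.23 and 1.33. Eomes (0.977, 0.894 and 1.14), Gata4 (1.12, 0.870 and 0.898) and Pax6 (0.885, 0.921 and 1.098) lay on both sides of 1. Foxa2 had 11 di-tags against 13.9, 34 against 17.7 and 33 against 13.0, ratios of 0.792, 1.92 and 2.55 that put Sample 3 apart from the others. With coverage taken from trans ends, Gata6 in Sample 3 was at 1.01, T at 1.01 and Sox17 at 1.14, while Sox9 stood at 2.54, 3.05 and 2.82. Under the same setting Foxa2 rose to 1.08, 2.86 and 3.63, which turned its direction in Sample 3, and in Sample 5 Pax6 was at 1.61 and Eomes at 1.39.

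The surroundings of Sox9 were nearer the middle of the genome. Over the 238 to 272 regions within 2 Mb outside its window the median ratio was 0.946, 1.15 and 1.08 in Samples 3, 4 and 5. The same medians around Gata6 were 1.19, 1.05 and 0.981, and around Foxa2 0.972, 1.07 and 1.08. Around T they were 1.207, 1.0997 and 1.078, above 1 in each library like the ratios of the T window. Around Sox17 the median was 1.277 in Sample 3, over 47 regions, and 0.944 in each of Samples 4 and 5. What part of a window's ratio was shared with its surroundings was not tested.

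**Figure D3:**
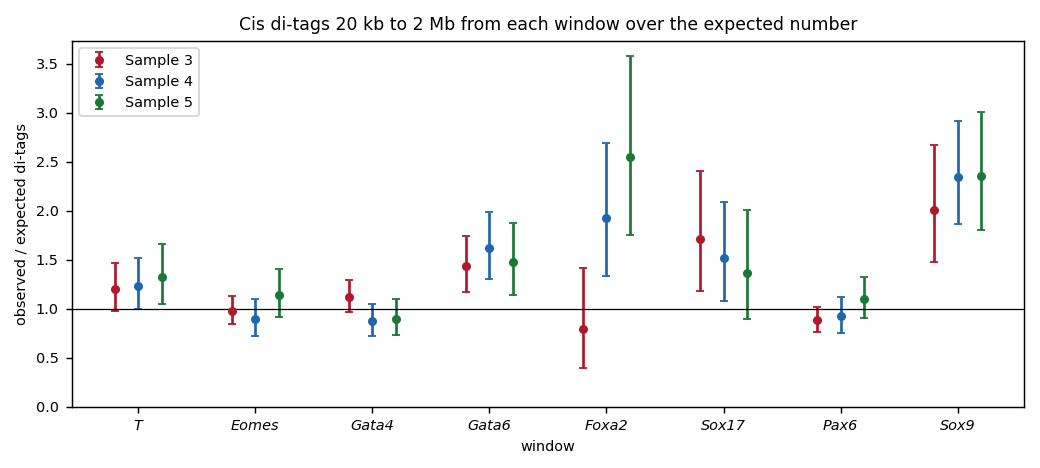
Observed over expected number of cis di-tags 20 kb to 2 Mb from each window (y axis), with 1 point per library and exact Poisson 95% intervals for counting error only. All 3 points of Sox9 lie at 2.01 or above, and those of Eomes, Gata4 and Pax6 lie around the line at 1.

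The excess of Sox9 lay on both sides at middle distances and, in all 3 libraries, on the lower-coordinate side farther out. At 110 to 500 kb the higher-side ratios were 2.81, 2.73 and 4.45 in Samples 3, 4 and 5, with intervals above 1 in each (from 1.40, 1.59 and 2.75), and the lower-side ratios were 3.14, 2.87 and 1.08. At 510 kb to 2 Mb on the lower side, 11 di-tags were found against 3.21 expected in Sample 3 (3.42-fold, 95% Poisson interval 1.71 to 6.13), 21 against 3.19 in Sample 4 (6.58-fold, 4.07 to 10.1) and 9 against 2.50 in Sample 5 (3.602-fold, 1.65 to 6.84). On the higher side at the same distance the ratios were 0.709, 1.28 and 2.31, of which that of Sample 5 had an interval above 1 (1.11 to 4.24). In Sample 4 every 200 kb step of the far lower side held at least 1 di-tag, with 5 in the step from 111800000, 3 in that from 111600000 and 3 in that from 111400000. The protein-coding genes next to Sox9 on the lower side in the GRCm38 gene order are Gm11677, Kcnj2 and Kcnj16, of which the Kcnj genes encode potassium channels. On the higher side Slc39a11, a zinc transporter gene, comes first. The partner regions were not placed on genes, because no mm9 annotation was used.

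To test such sums, the contacts of every 10 kb region were added up per side over 20 to 100 kb, 110 to 500 kb and 510 kb to 2 Mb, and compared with the expected sum by an exact one-sided binomial test with Benjamini-Hochberg adjustment over all regions, a test chosen after the results had been seen. The binomial test allows for counting error only, and no model with extra spread was run on the sums. It called 0.0675%, 0.234% and 0.161% of all sums in Samples 3, 4 and 5, or 0.56%, 1.7% and 1.18% of those of captured regions. Of the 168 sums of the windows it called 0, 2 and 6, or 0%, 1.19% and 3.57%. Among sums with at least 1 expected di-tag it called 0 of 136, 2 of 145 (1.38%) and 6 of 137 (4.38%) of the windows' against 0.152%, 0.474% and 0.352% of all. By this exact binomial test, the 2 in Sample 4 were the far lower side of both Sox9 regions, with 9 di-tags against 1.32 (adjusted p = 0.00979) and 12 against 1.87 (adjusted p = 0.00135). In Samples 3 and 5 these sums held 4 and 7, and 3 and 6 di-tags and were not called. The first Sox9 region was called by the exact binomial test on its higher side at 110 to 500 kb in Sample 5, with 10 di-tags against 1.69 (adjusted p = 0.0136), and had 4 against 1.55 and 8 against 2.65 there in Samples 3 and 4.

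Foxa2 was called by the exact binomial test on its far lower side in Sample 5, with 16 di-tags against 2.00 expected (adjusted p = 4.41e-06). The same sum was 4 against 3.53 in Sample 3 and 5 against 2.80 in Sample 4, so the call rested on Sample 5. Over the libraries the mean ratio was 3.65, and 1.46 without Sample 5. Of these di-tags, 11 of 16 lay between 147000000 and 147199999, where 0.733 were expected, and Samples 3 and 4 had 3 and 2 there against 1.22 and 1.05. In the GRCm38 gene order the next protein-coding genes on that side are Pax1 (a paired-box factor), Nkx2-2 and Nkx2-4 (homeobox factors), again without a placement of the partner regions on them.

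**Figure D4:**
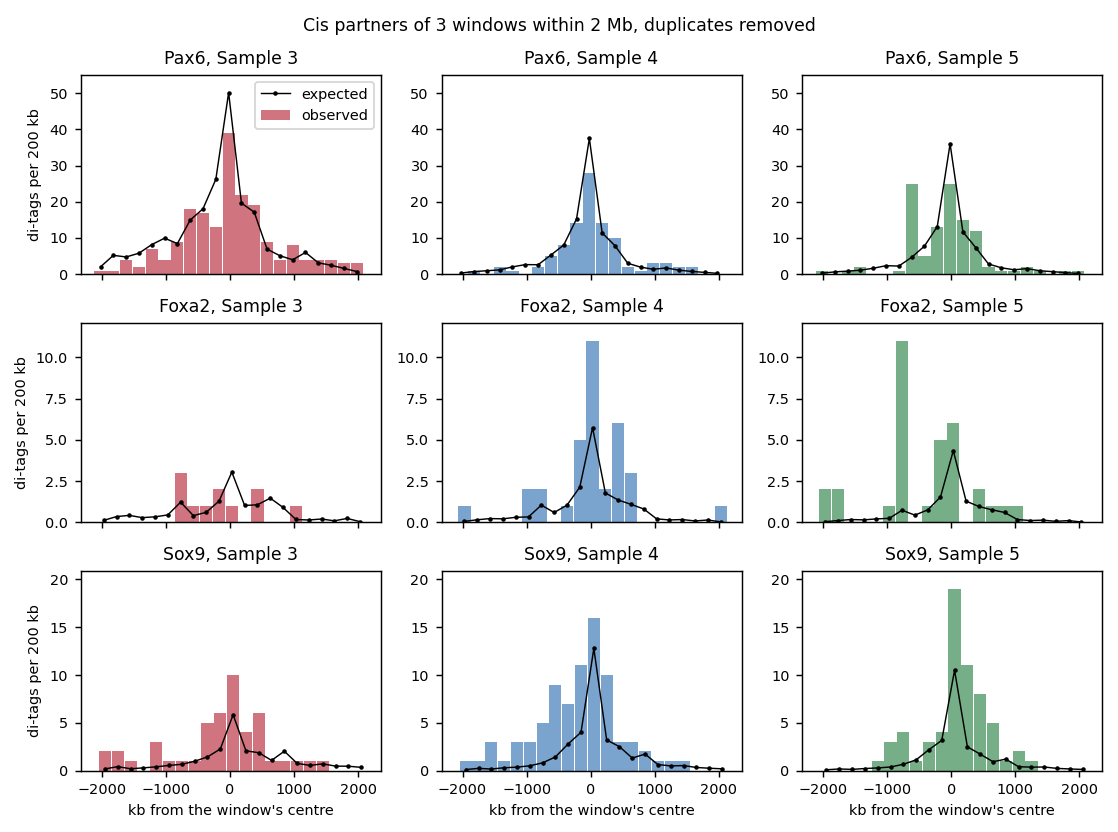
Di-tags per 200 kb step (y axis) against distance from the window's centre (x axis, kb) for Pax6, Foxa2 and Sox9 in each library, with bars for the observed and the black line for the expected number. Sample 5 shows a single tall step on the lower side for Pax6 (25 di-tags) and Foxa2 (11), and Sox9 in Sample 4 stands above the line in every step of the lower side.

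The remaining sums called, all in Sample 5, belonged to Pax6 and Eomes. By the exact binomial test, the Pax6 region from 105500000 had 17 di-tags against 5.39 on its far lower side (adjusted p = 0.0365) and 26 against 10.3 at 20 to 100 kb on its higher side (adjusted p = 0.0248), and the Pax6 region from 105520000 had 17 against 4.72 at 20 to 100 kb on its lower side (adjusted p = 0.012). Both near sums include the contacts of these 2 regions with each other, inside the window. Counting partners outside the window only, Pax6 in Sample 5 had 9 di-tags against 17.7 at 20 to 100 kb on the higher side (0.508-fold, 95% Poisson interval 0.232 to 0.965) and 17 against 20.0 on the lower side, so the contacts outside did not exceed the expected number. In Samples 3 and 4 none of the 3 was called, and the far one was 18 against 26.7 and 5 against 5.75. The mean ratio of the whole Pax6 window at 510 kb to 2 Mb on that side was 1.21, and 0.735 without Sample 5. The captured Eomes region had 21 against 7.89 at 110 to 500 kb on its lower side (exact binomial test, adjusted p = 0.0491). This call was lost (exact binomial test, adjusted p = 0.0845) when di-tags whose ends both lay within 5 bp of another's were counted once. Eomes had 28 against 21.4 and 21 against 11.1 there in Samples 3 and 4, above expectation in each library.

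Single partner regions were then tested, by an exact one-sided binomial test on each pair of regions with Benjamini-Hochberg adjustment over all possible pairs. In the whole genome it called 60, 126 and 201 pairs in Samples 3, 4 and 5, which is 0.000135%, 0.000282% and 0.000449% of the pairs, or 0.000643%, 0.00153% and 0.00252% of those with a captured region. Of 10347, 10334 and 10350 pairs of a window region it called 0, 0 and 2. Both pairs in Sample 5 were of Pax6 and shared the captured partner region on chromosome 2 from 104960000 to 104969999. By this exact test, the Pax6 region from 105500000 had 6 di-tags with it against 0.194 expected (adjusted p = 0.0186), and the region from 105520000 had 5 against 0.0992 (adjusted p = 0.0212).

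The whole Pax6 window shared 4 di-tags with this partner region in Sample 3, 3 in Sample 4 and 16 in Sample 5, against 2.69, 0.636 and 0.596 expected. Sample 5 was therefore high. The partner region itself held 552, 340 and 360 ends in Samples 3, 4 and 5, which the expected number already takes in. Over the 50 kb around it, from 104940000 to 104989999, the counts were 8, 3 and 21 against 5.62, 1.78 and 1.58. Exact Poisson 95% intervals of these counts were 3.45 to 15.8, 0.619 to 8.77 and 13.0 to 32.1, so the expected number lay inside the interval in Samples 3 and 4 and below it in Sample 5. The 21 di-tags came from all 4 regions of the window, with 11, 4, 5 and 1, and the region from 105500000 gave most. With duplicates kept the 2 called pairs held 34 and 26 lines in Sample 5, 15 and 0 in Sample 3, and 4 and 1 in Sample 4. In the GRCm38 gene order the protein-coding genes on the lower side of Pax6 are Rcn1 (a calcium-binding protein of the endoplasmic reticulum), Them7 and Wt1 (a zinc-finger factor of kidney and gonad). Which of them, if any, lies in the partner region was not determined.

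**Figure D5:**
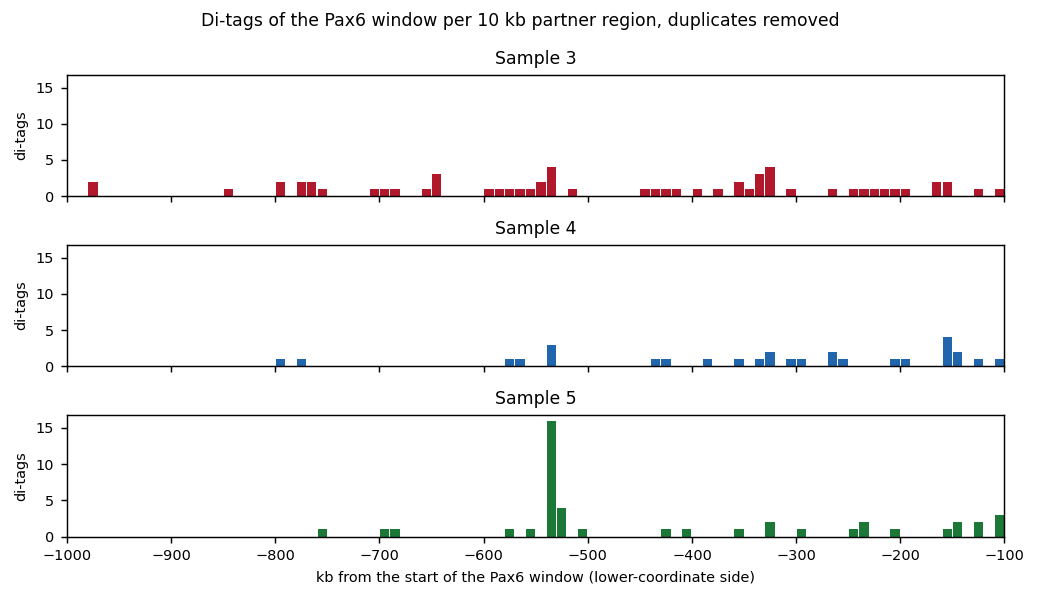
Di-tags of the Pax6 window per 10 kb partner region (y axis) against the distance from the window's start (x axis, kb, lower-coordinate side), 1 panel per library. In Sample 5 a single region 540 kb from the window's start holds 16 di-tags, and the same region holds 4 in Sample 3 and 3 in Sample 4.

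No partner region of a window was called in all 3 libraries. The test has little reach at low counts. In simulated data, pairs of captured regions with 4 added di-tags were called in 0%, 4% and 6% of cases in Samples 3, 4 and 5. With 6 added they were called in 26%, 84% and 84%, and with 12 in 100%. Pairs with regions that are not captured, and nearer pairs with larger expected numbers, were not simulated in this way. The values therefore do not give the reach of the test for partners close to a window. Of 912 regions seen at least once with a window in region pairs 20 kb to 2 Mb apart, 299 were seen in at least 2 libraries and 102 in all 3. These were 24 of Pax6, 21 of Gata4, 18 of Eomes, 17 of Gata6, 14 of T, 5 of Sox9, 3 of Sox17 and none of Foxa2. The recurrence that coverage and distance alone would give was not computed, so these counts are a description.

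The partner region with the highest smallest count over the libraries is given for each window, and none of these was called. Counts and expected numbers leave out pairs of regions less than 20 kb apart. For the partners of Pax6 and Sox9, which adjoin the window, contacts with the nearest window region are therefore not included. Gata4 had 11, 12 and 15 di-tags with the captured region from 63890000, 10 kb beyond its window, against 11.3, 13.5 and 13.0 expected. Eomes had 6, 4 and 5 with the region from 118340000 (4.45, 3.47 and 2.15 expected), and Pax6 had 4, 6 and 4 with the one next to it from 105540000 (7.58, 5.53 and 4.81 expected). The Gata4 and Pax6 counts lay on both sides of the expected number, and those of Eomes above it in each library.

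T had 3, 6 and 8 di-tags with the region from 8600000 against 2.31, 4.58 and 2.91 expected. Gata6 had 2, 6 and 8 with the region from 11020000 against 1.56, 1.504 and 1.76, highest in Sample 5 and lowest in Sample 3. Sox17 had 3, 3 and 4 with the captured region from 4510000 against 2.44, 4.84 and 3.72. Sox9 had 3 in each library with the region from 112630000, next to its window, against 0.809, 1.79 and 1.43. Foxa2 had no partner region in all 3 libraries. The one listed for it, from 147020000 and captured, had 0, 1 and 2. Other regions tied with it, such as that 340 kb above the window's start with 2 di-tags in Sample 3 and 1 in Sample 4. The lowest coordinate among the tied regions was listed.

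The division of contacts between the sides was described by the share on the higher-coordinate side of each window. This side took 66.1% ± 4.76 of the contacts within 2 Mb for Sox17 and 52.7% ± 1.66 for Gata6 (SD, n = 3 for both), and the intervals of Gata6 included an even division in each library. Sox17 lies near the start of its chromosome, and the expected number already put 66.0%, 66.5% and 66.1% on its higher side for pairs at 20 kb to 2 Mb, where 60.6%, 68.4% and 69.2% were found. Eomes had fewer contacts on its higher side than expected in each library, with 50.3%, 39.8% and 34.4% found against 60.95%, 51.8% and 52.1%. The exact binomial 95% intervals of Eomes, 42.9% to 57.6%, 29.8% to 50.5% and 24.7% to 45.2%, lay below those values. For Sox9 the side with more contacts changed, with 46.8%, 40.7% and 66.7% on the higher side against 60.4%, 55.3% and 53.9% expected.

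The lower-side contacts of Eomes were above expectation at 110 to 500 kb, with ratios of 1.16, 1.44 and 2.28 in Samples 3, 4 and 5, and its higher-side contacts were below it at 20 to 100 kb, with 0.765, 0.546 and 0.560. The interval of the ratio lay above 1 on the lower side in Sample 5 alone (1.503 to 3.32) and included 1 on the higher side in each library. The next protein-coding genes with a known name on the lower side of Eomes in the GRCm38 gene order are Cmc1 and Azi2, and Golga4 (a Golgi protein) and Itga9 (an integrin) follow on the higher side.

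Contacts among the 8 windows were not detected. No di-tag joined different windows in any library, over 27 pairs on different chromosomes and the pair Foxa2 and Pax6 on chromosome 2. The windows' shares of trans ends gave 0.323, 0.23 and 0.183 expected di-tags in Samples 3, 4 and 5, or 0.735 in all. A count of 0 allows a mean of up to 3 (one-sided 95% limit), which is 4.08 times the expected number. An excess up to that size was therefore not excluded at this depth. Between the windows and all other captured regions on other chromosomes, 533, 524 and 496 di-tags were found against 914, 718 and 652 expected, ratios of 0.583, 0.730 and 0.761. With only the captured regions of the windows, the ratios were 0.442, 0.507 and 0.578. No such ratio was computed for regions outside the windows, so the values are not shown to be particular to the windows. The number expected among windows was set from trans ends in the same way, and if it was likewise too high, 4.08 is too low a limit. With each window widened by 10 kb on both sides, 4 di-tags joined windows, 1 each of Pax6 and Sox9 in Sample 3 and of Eomes and Pax6, Gata4 and Gata6, and Gata6 and T in Sample 5, against 0.612 and 0.458 expected. Sample 4 had 0 against 0.508, and over the 3 libraries the ratio was 2.53. The 3 di-tags of Sample 5 were 6.55 times the expected number, which lay below their exact Poisson 95% interval of 0.619 to 8.77. With duplicates kept, the widened windows shared 2, 0 and 38 lines against 4.50, 3.37 and 2.85 expected, in which copies of 1 di-tag count repeatedly. No pair recurred with duplicates removed.

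Among pairs on different chromosomes, an exact binomial test with Benjamini-Hochberg adjustment called 0, 1 and 2 pairs of a window region, or 0%, 1.57e-05% and 3.13e-05%, against 8.17e-06%, 6.57e-06% and 6.31e-06% of all such pairs. They were Sox17 with chromosome 9 from 6170000 in Sample 4, and Eomes with chromosome 6 from 120940000 and chromosome 19 from 59240000 in Sample 5, with 3 di-tags each. In each case the 3 shared a position at an end and lay within 4 bp of one another at the other end, and counting such di-tags once left 1. In cis beyond 2 Mb, 2007 partner regions were seen and only that of Eomes from 106100000 on chromosome 9, a captured region, recurred in all 3 libraries, with 1 di-tag in each.

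The study compared lists with duplicates kept and removed by the number of significant interactions that the CHiCAGO program called. For the windows the same lists were compared with the pair test above. That is a different test on regions of 10 kb, so its counts and ratios cannot be set against those of the study. Kept lists held 35554, 19961 and 17800 di-tags of the windows. Pax6 di-tags were the most copied in Samples 3 and 4, with 9.06 and 6.74 lines per distinct di-tag against 7.22 and 5.70 in the whole library, and T the least in all 3 libraries, with 4.65, 3.74 and 3.19. With duplicates kept, the pair test called 257, 198 and 165 partner pairs of the windows in place of 0, 0 and 2, at a genome-wide rate of 0.968%, 0.654% and 0.558% (5.1%, 3.26% and 2.77% for pairs with a captured region). The ratio summed over libraries was 310.0. It was 181.5 without Sample 3 and had no value without Sample 5, which held both calls made after removal. Without the distance factor the calls were 122, 86 and 79 after removal, where 0.474%, 0.353% and 0.276% of all pairs and 2.83%, 1.91% and 1.49% of those with a captured region were called. With duplicates kept they were then 509, 352 and 309, where the shares were 1.76%, 1.24% and 1.05%, and 9.76%, 6.34% and 5.33%. A sign-flip test of the log2 ratio could not be computed with counts of 0 in 2 libraries, and with 3 libraries its smallest exact p is 0.25.

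Of the pairs called with duplicates kept, 195 of 257, 150 of 198 and 118 of 165 held at most 1 di-tag after removal, that is 75.9%, 75.8% and 71.5%. Of 560 pairs called in any library 3 were called in all, or 0.536%. Sox9 had the highest called share of its pairs in Sample 4 (44 of 752, or 5.85%), Pax6 in Sample 3 (71 of 1514, or 4.69%) and Foxa2 in Sample 5 (17 of 380, or 4.47%).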

How the data were processed

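CHi-C di-tags of 3 libraries (Samples 3, 4 and 5) were used. The authors cut chromatin with HindIII, captured the ligation products and ran HiCUP; per the labels the aligner was Bowtie 1.1.0 and the genome mm9. The deposited lists give the mapped location of each read of a di-tag, with duplicates retained or removed, and no measured level, so all values here are counts of lines. The windows, lists and tests were chosen with earlier results of these data known.

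Locations were assigned to 10 kb regions in Python 3.11.15 (numpy 2.4.6, scipy 1.17.1). Cis pairs 20 kb to 2 Mb apart holding 2 or more di-tags entered a one-sided exact binomial test, in which the expected number came from each region's share of ends, the distance and the capture class. Benjamini-Hochberg adjustment covered every possible pair, and an adjusted p under 0.05 was a call. Scripts were tested on simulated data. All windows are named, with the partner having the highest smallest count where none was called in all 3 libraries; called regions and sums were named after their values were seen. The gene lists need an mm9 annotation and were not used here. Gene names and promoters came from RefSeq (GRCm38), which matched 8 and 4 of the 8 genes. Figures were drawn with matplotlib 3.10.9.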

Additional observations from a re-analysis of the deposited data

How the results depend on the processing

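The mean number of window pairs called per library, 0.667, fell to 0 with an adjusted p under 0.001 and with a negative binomial model, rose to 95.7 without a distance factor and to 206.7 with duplicates retained, and ranged from 0 to 1.0 when each library was left out; both calls rested on Sample 5. The other settings run for it stayed within 1.5 times. The ratio of calls retained to removed, 310.0, was 4.08 without a distance factor and 189.7 with regions of 20 kb, and ranged from 181.5 to 211.0 without a library; it had no value at an adjusted p under 0.001 or without Sample 5. The windows' cis share within 2 Mb, 24.7%, became 19.4% without di-tags inside a window, and the pooled share on the higher side, 45.0%, became 47.8% without contacts under 50 kb. Contacts among windows, 0 times the expected number, became 2.53 with windows widened by 10 kb. The trans calls, 1.0 per library, fell to 0 with near-identical di-tags counted once and ranged from 0.5 to 1.5 without a library. Calls of summed contacts, 2.67 per library, fell to 0.333 at an adjusted p under 0.001 and ranged from 1.0 to 4.0 when each library was left out. Without Sample 5 only Sox9 was left. The negative binomial model, under which no window pair was called, was not run on the summed contacts. No paired analysis was possible because the libraries form 1 group. Depth limits Foxa2 most, with 113 to 136 di-tags. The summed contacts, the trans coverage per window and the counting of near-identical di-tags were chosen after seeing the data.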
